A study of Mus musculus with 12 samples.

Results

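The type I interferon-stimulated genes described here are 37 genes of antiviral effectors, nucleic acid sensors and interferon signaling that were chosen by name. Of these, 36 matched a gene name among the 17710 genes of the deposited count table, and Mx2 was not analysed here. Liver RNA was sequenced from 12 male WT mice, 3 in each of 4 groups, which differed in strain and in diet. All mice were 8 weeks old when feeding began and were fed for 10 weeks. The groups were ICR mice on CDAHFD, ICR mice on ND, C57BL/6J mice on CDAHFD and C57BL/6J mice on ND. ICR is an outbred stock, so its mice can differ in genotype, whereas C57BL/6J is inbred and supplied the mouse reference genome to which the reads of both strains were aligned. CDAHFD is a high-fat diet that lacks choline and supplies amino acids in purified form, used to induce metabolic dysfunction-associated steatohepatitis (MASH), and ND is normal chow. None of the groups carried a deleted or added gene, and each library was taken as 1 mouse, since no pooling is named.

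Type I interferons signal through a receptor made of IFNAR1 and IFNAR2. The kinases JAK1 and TYK2 then phosphorylate STAT proteins, and STAT2 and IRF9 are subunits of the complex ISGF3 that forms. ISGF3 binds the interferon-stimulated response element in the promoters of target genes, and the products block viral replication, sense foreign nucleic acids or dampen further signaling. In liver, both hepatocytes and immune cells can express these genes. Many of them also respond to interferon-gamma.

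A core of the response element, GAAANNGAAA on either strand, was searched in the RefSeq promoters of mouse build GRCm38.p6, from 250 bases before to 50 bases after a transcription start. Of the members, 27 matched the promoter table, and 12 of these 27 (44.4%) held the motif in at least 1 window, against 1079 of 27025 genes of the table (3.99%). A match describes the letters of the window and is not evidence of binding. The promoter stretches of 7 genes are shown because the motif stood in genes whose levels moved differently in these livers. The sequences are written 5′ to 3′ on each gene's own strand, and capitals mark the motif, which reads TTTCNNTTTC where it lies on the opposite strand. The stretch of Ifit1 lies at chr19:34640739-34640888 on the plus strand and that of Ifit3 at chr19:34583349-34583528 on the plus strand. Isg15 is shown at chr4:156200819-156200948 and Rsad2 at chr12:26456453-26456602, both on the minus strand. Oas3 is shown at chr5:120777660-120777789 on the minus strand, Stat2 at chr10:128270248-128270497 on the plus strand and Bst2 at chr8:71537473-71537622 on the minus strand.
Ifit1: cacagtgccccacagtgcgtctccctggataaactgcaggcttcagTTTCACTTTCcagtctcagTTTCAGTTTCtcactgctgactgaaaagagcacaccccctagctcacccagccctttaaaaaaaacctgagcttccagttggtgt
Ifit3: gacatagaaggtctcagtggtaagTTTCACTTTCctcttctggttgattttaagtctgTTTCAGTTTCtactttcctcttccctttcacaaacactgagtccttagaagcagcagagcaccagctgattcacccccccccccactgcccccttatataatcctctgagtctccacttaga
Isg15: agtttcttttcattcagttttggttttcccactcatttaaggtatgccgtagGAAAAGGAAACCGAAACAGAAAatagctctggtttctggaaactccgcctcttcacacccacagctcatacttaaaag
Rsad2: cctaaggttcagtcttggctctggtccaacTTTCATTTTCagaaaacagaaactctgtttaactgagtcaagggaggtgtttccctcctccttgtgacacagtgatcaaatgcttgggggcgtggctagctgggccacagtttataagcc
Oas3: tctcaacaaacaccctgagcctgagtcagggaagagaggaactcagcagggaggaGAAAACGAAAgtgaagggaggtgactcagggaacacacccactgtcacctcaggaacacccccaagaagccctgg
Stat2: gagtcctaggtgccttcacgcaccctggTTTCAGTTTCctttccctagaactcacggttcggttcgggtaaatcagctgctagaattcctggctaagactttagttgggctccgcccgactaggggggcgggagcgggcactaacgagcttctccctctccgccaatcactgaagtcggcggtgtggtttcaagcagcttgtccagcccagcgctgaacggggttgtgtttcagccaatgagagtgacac
Bst2: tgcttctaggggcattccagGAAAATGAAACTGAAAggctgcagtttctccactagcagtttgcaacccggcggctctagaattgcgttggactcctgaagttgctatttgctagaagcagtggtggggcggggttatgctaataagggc
In the Isg15 stretch 3 matches overlapped, and in the Bst2 stretch 2 did. Of the 12 genes with the motif, 10 rose on CDAHFD in C57BL/6J livers, and the other two were Stat2 and Bst2. Of the 15 matched genes without the motif, 12 rose there, and 26% of all genes did. In ICR livers 0 of the 12 and 4 of the 15 rose and 1 of each fell, where 20.1% of all genes rose and 16.5% fell.

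Gene counts summed to between 22245245 and 32214782 per library, and every CDAHFD library was deeper than every ND library. Levels are given as CPM, the count relative to the library total after scaling by the trimmed mean of M values (TMM), in the order of replicates 1, 2 and 3. The TMM factors were 1.17 to 1.43 in CDAHFD libraries and 0.76 to 0.849 in ND libraries, and scaling by library size alone moved the median log2 change over all genes to 0.59 in ICR and 0.66 in C57BL/6J. The liver label was checked with 9 hepatocyte markers, none of which was at 0 in any library. Their summed level was 83400 to 97100 CPM in ICR mice on CDAHFD, against 131000 to 160000 CPM in ICR mice on ND. In C57BL/6J mice it was 52900 to 92800 CPM on CDAHFD, against 126000 to 138000 CPM on ND. In whole liver RNA, a lower share of cells of a type and less RNA per cell cannot be told apart. Nothing in the labels ties the replicates to separate cages or days, so the p values measure the spread between these samples.

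Some libraries stood apart from their own group for the interferon-stimulated genes. ICR ND replicate 2 had the highest level of its group for 36 of 36 members, whereas 40.7% of all genes were highest there. The median log2 ratio of this library to the mean of the other two ICR ND libraries was 1.02 over the members, from 0.26 to 2.74, and 0.03 over all genes. The 18 interferon-gamma-induced GTPases were also all highest in this library, with a median log2 ratio of 2.16, as were the 8 acute phase genes with 1.93. ICR ND replicates 1 and 3 were therefore highest of their group for 0 members, where 35.8% and 22.7% of all genes were highest. Replicate 1 was the lowest for 27 of 36 members and replicate 3 for 9, and the shares of all genes lowest there were not computed. The median log2 ratio of replicate 1 was -0.87 over the members, -0.04 over all genes and -4.95 over the acute phase genes. That of replicate 3 was -0.52, -0.03 and -0.21. Each of these ratios is to a mean that includes the high replicate 2. In C57BL/6J mice on CDAHFD, replicate 3 was highest of its group for 30 of 36 members, against 27.4% of all genes, with a median log2 ratio of 0.59. In C57BL/6J mice on ND, replicate 2 was highest for all 8 acute phase genes, with a median log2 ratio of 4.11, and for 23 of 36 members, with 0.19, where 33.3% of all genes were highest there. Counts of called members are given with and without single libraries. Values of single ICR genes are given without ND replicate 2 where its absence changed a call or a direction. They are also given without ND replicate 1 where its absence added a call in the ICR diet comparison. Replicate 2 was singled out by the members' own values, so leaving it out lowers their ICR ND level by construction. The direction of these shifts was thus set by the choice of library, and calls gained without it describe its weight only. The part of interferon-gamma or of the acute phase in these values was not tested.

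The summed level of the 36 members was 1696, 1594 and 1611 CPM in ICR mice on CDAHFD, against 1132, 2343 and 1495 CPM in ICR mice on ND. In C57BL/6J mice it was 3376, 3067 and 4766 CPM on CDAHFD, against 1600, 1799 and 1485 CPM on ND. The ICR diet groups overlapped, with ICR ND replicate 2 above all ICR mice on CDAHFD, whereas the C57BL/6J diet groups did not overlap. Every C57BL/6J mouse on CDAHFD stood above all of the other 9 mice.

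In ICR livers, 6 of the 35 members tested rose on CDAHFD and 2 fell, as called by edgeR's quasi-likelihood test at a Benjamini-Hochberg adjusted p under 0.05, where 20.1% of all genes rose and 16.5% fell. The shares of members were near or below these backgrounds, and the median log2 fold change was 0.14 over the members and -0.01 over all genes. The genes that rose were Oas2, Oasl1, Oasl2, Ifi27l2a, Sp100 and Samd9l, and those that fell were Stat2 and Helz2. At an unadjusted p under 0.05, 9 members were higher and 3 lower, where 25% of all genes were higher and 22.7% lower. The DESeq2 Wald test called 8 higher and 3 lower, where 23.1% and 19.4% of all genes were called. Mx1 did not pass the filter on low counts in the 6 ICR libraries and was not tested there. The libraries of 9 members lay wholly above those of ND, where 27.5% of all genes did, and those of 4 lay wholly below, where 25.9% did. Scaling by library size alone gave 15 members higher and 0 lower, at which 52.5% of all genes were called higher and 4.61% lower.

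Without ICR ND replicate 2, 19 members rose and 1 fell in ICR livers, with backgrounds of 21.4% and 18.4%, and the median log2 fold change was 0.75. The upward shift follows from leaving out the library that was highest of its group for every member. Leaving out ICR ND replicate 1 instead gave 5 that rose and 6 that fell, with backgrounds of 19.5% and 17.4%. The 6 that fell then were Herc6, Irf9, Eif2ak2, Parp9, Dtx3l and Helz2. Without each other single library 4 rose and 1 or 2 fell, where 13.4% to 15.5% of all genes rose and 9.18% to 10.8% fell. Of the 8 called members, Oas2, Ifi27l2a, Sp100, Samd9l and Helz2 were called whichever library was left out. Oasl1 lost its call in 5 of 6 such fits, and Oasl2 and Stat2 lost theirs in 4 of 6.

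In C57BL/6J livers, 30 of 36 members rose on CDAHFD and 0 fell by the same test, where 26% of all genes rose and 21.2% fell. The median log2 fold change was 1.83 over the members and 0.00 over all genes. The DESeq2 Wald test also called 30 higher and 0 lower, where 26.6% and 22.9% of all genes were called. At an unadjusted p under 0.05 the counts were 30 and 0, where 29.1% and 24.7% of all genes passed. The 6 members not called were Irf9, Stat2, Parp9, Dtx3l, Helz2 and Bst2. The CDAHFD libraries of 31 members lay wholly above the ND libraries, where 30.6% of all genes did, and 0 lay wholly below, where 27.7% did. Without C57BL/6J CDAHFD replicate 3, 29 members rose, where 21.9% of all genes did, and the median was 1.42. Without each other library 28 to 31 rose, where 22.5% to 25.5% of all genes did.

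**Figure D1:**
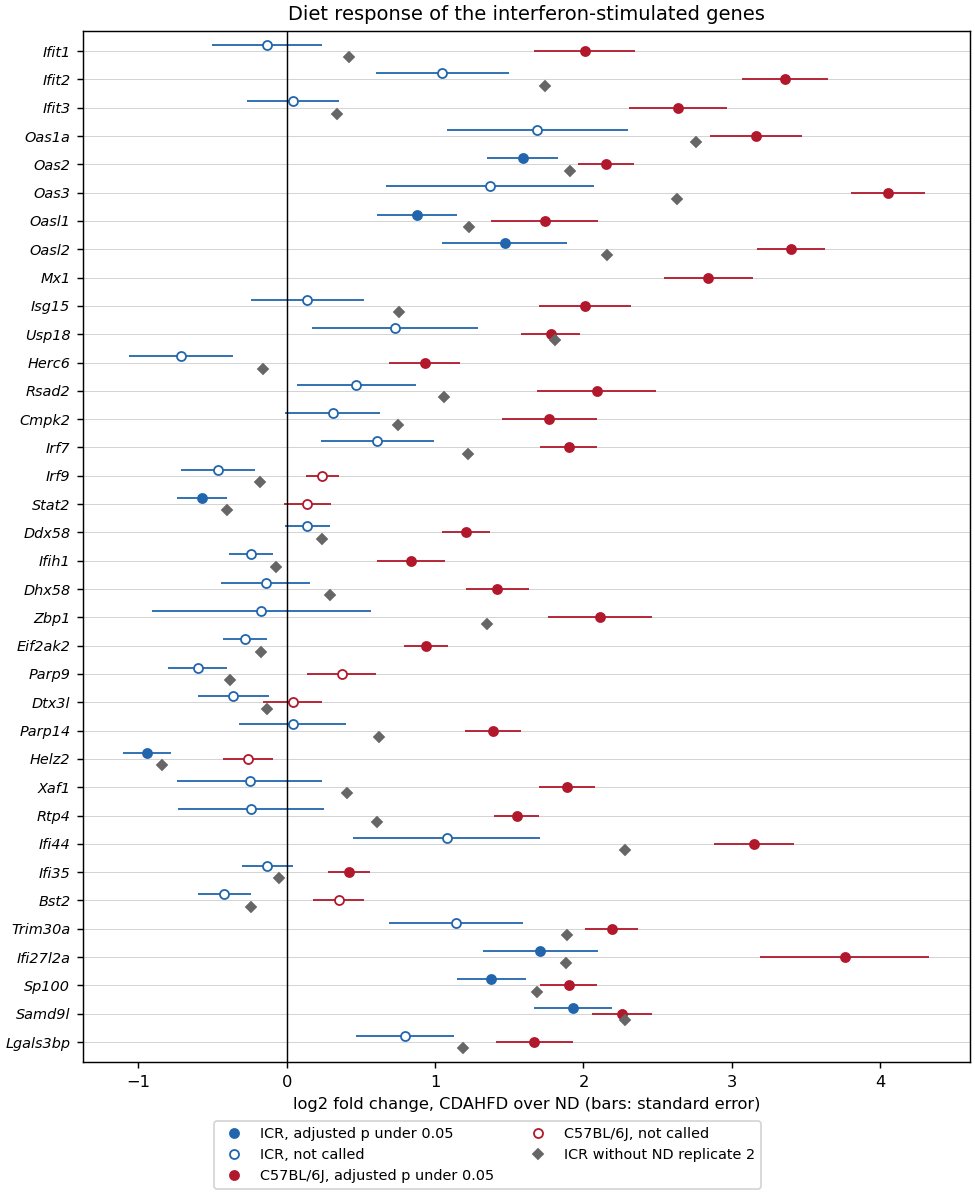
Log2 fold change of CDAHFD over ND for each interferon-stimulated gene, with ICR above C57BL/6J and bars of 1 SE from the edgeR fit of 6 libraries. Grey diamonds give ICR without ND replicate 2. The C57BL/6J points run from -0.26 (Helz2) to 4.05 (Oas3) and the ICR points from -0.94 (Helz2) to 1.93 (Samd9l).

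The IFIT proteins bind viral RNA and block its translation. None of the 3 IFIT genes was called in ICR livers, and all 3 rose in C57BL/6J livers on CDAHFD, by 4.04-fold to 10.3-fold. Ifit3, whose human counterpart stabilizes IFIT1, stood at 15.5, 11.7 and 8.21 CPM in ICR mice on CDAHFD, against 9.39, 16.3 and 9.21 CPM in ICR mice on ND. Ifit3 in C57BL/6J mice stood at 108, 113 and 266 CPM on CDAHFD, against 24.3, 27 and 27 CPM on ND. The ICR groups overlapped and the C57BL/6J groups lay far apart. The log2 fold change of Ifit3 was 0.04 ± 0.31 (SE, adjusted p = 0.936) in ICR and 2.64 ± 0.33 (adjusted p = 0.000265) in C57BL/6J.

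Ifit1, which binds RNA whose cap is incompletely methylated, stood at 17.3, 13.6 and 12.7 CPM in ICR mice on CDAHFD, against 9.64, 26.9 and 12 CPM in ICR mice on ND. Ifit1 in C57BL/6J mice stood at 90.5, 88.3 and 223 CPM on CDAHFD, against 30.4, 34.5 and 34.8 CPM on ND. The highest ICR value came from an ND mouse, replicate 2, and lay below every C57BL/6J value. Its log2 fold change was -0.13 ± 0.37 (adjusted p = 0.805) in ICR and 2.01 ± 0.34 (adjusted p = 0.00121) in C57BL/6J. With ICR ND replicate 2 left out the ICR values were 0.42 for Ifit1 (adjusted p = 0.139) and 0.34 for Ifit3 (adjusted p = 0.383), still not called, whereas Ifit2 was called higher at 1.74 (adjusted p = 0.00554) in place of 1.05 (adjusted p = 0.107).

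The OAS enzymes make oligoadenylates that activate RNase L, an enzyme that degrades viral and cellular RNA. In ICR livers 3 of the 5 OAS genes rose on CDAHFD, and in C57BL/6J livers all 5 did, by 3.33-fold to 16.6-fold. Oas2 stood at 27, 25.8 and 26.5 CPM in ICR mice on CDAHFD, against 7.28, 12.7 and 6.67 CPM in ICR mice on ND. Oas2 in C57BL/6J mice stood at 99.7, 60.9 and 75.7 CPM on CDAHFD, against 18.7, 18.3 and 16.5 CPM on ND. Neither strain's diet groups overlapped. Oas2 rose 3.01-fold in ICR (log2 1.59 ± 0.24, adjusted p = 0.0032) and 4.42-fold in C57BL/6J (log2 2.15 ± 0.19, adjusted p = 3.59e-05).

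Oasl2, an OAS-like protein with ubiquitin-like domains, stood at 36, 32.9 and 34.2 CPM in ICR mice on CDAHFD, against 6.34, 22.4 and 8.99 CPM in ICR mice on ND. Oasl2 in C57BL/6J mice stood at 156, 104 and 185 CPM on CDAHFD, against 12.8, 16.7 and 12.8 CPM on ND. All 3 ICR mice on CDAHFD were above ICR mice on ND, by a narrow margin over ND replicate 2. It rose 2.78-fold in ICR (adjusted p = 0.0303), a call that was lost without ICR CDAHFD replicate 1, 2 or 3 or ND replicate 3 (adjusted p of 0.0685 to 0.107), and 10.6-fold in C57BL/6J (adjusted p = 1.08e-05). Oasl1, which in mouse limits the translation of Irf7, rose 1.84-fold in ICR (adjusted p = 0.0393) and 3.33-fold in C57BL/6J (adjusted p = 0.00394). The Oasl1 call in ICR held only where no library or ND replicate 2 was left out, with adjusted p of 0.0608 to 0.123 without any other library, and it was lost in 1 fit of all 12 libraries (0.87, adjusted p = 0.0781).

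Oas1a stood at 22.1, 20.1 and 25.4 CPM in ICR mice on CDAHFD, against 1.97, 14.7 and 4.74 CPM in ICR mice on ND. Oas1a in C57BL/6J mice stood at 40.4, 38.7 and 60.9 CPM on CDAHFD, against 4.14, 7.88 and 3.71 CPM on ND. The diet groups did not overlap in either strain, although the ICR difference was not called (log2 1.69 ± 0.61, adjusted p = 0.0654). It was called at 2.76 (adjusted p = 0.00218) once ICR ND replicate 2 was left out. With all libraries Oas1a was called by DESeq2 (1.69, adjusted p = 0.013), in 1 fit of all 12 libraries (1.67, adjusted p = 0.0236) and with scaling by library size only (2.31, adjusted p = 0.0157). In C57BL/6J Oas1a rose 8.96-fold (adjusted p = 6.14e-05).

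Oas3, the longest of the OAS enzymes, stood at 5.93, 8.41 and 10.8 CPM in ICR mice on CDAHFD, against 0.688, 7.21 and 2.04 CPM in ICR mice on ND. Oas3 in C57BL/6J mice stood at 27.5, 26.6 and 40.7 CPM on CDAHFD, against 1.73, 2.42 and 1.59 CPM on ND. Its rise in C57BL/6J, 16.6-fold (log2 4.05 ± 0.25, adjusted p = 6.06e-06), had the highest log2 value of the members there. The ICR groups overlapped through ND replicate 2 (log2 1.37 ± 0.70, adjusted p = 0.169), and without that library Oas3 was called at 2.63 (adjusted p = 0.0078).

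Mx1 encodes a GTPase that blocks influenza virus in mouse, and many inbred strains, C57BL/6J among them, carry a defective copy. It had 30, 6 and 7 counts in ICR mice on CDAHFD (0.791, 0.173 and 0.193 CPM), against 2, 6 and 2 counts in ICR mice on ND (0.0983, 0.338 and 0.11 CPM). C57BL/6J mice had 170, 152 and 188 counts on CDAHFD (4.83, 4.02 and 5.15 CPM), against 11, 12 and 13 on ND (0.576, 0.69 and 0.688 CPM). The diets were not compared for it in ICR. In C57BL/6J it rose 7.14-fold (log2 2.84 ± 0.30, adjusted p = 9.3e-05).

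ISG15 is a ubiquitin-like protein that is attached to other proteins. None of the 3 genes of its system was called in ICR livers, and all 3 rose in C57BL/6J livers. Usp18, which removes ISG15 and damps signaling at the interferon receptor, stood at 30, 27.5 and 28.4 CPM in ICR mice on CDAHFD, against 7.08, 36.4 and 9.27 CPM in ICR mice on ND. Usp18 in C57BL/6J mice stood at 60.6, 75.4 and 109 CPM on CDAHFD, against 24.7, 23.4 and 23.7 CPM on ND. ICR ND replicate 2 lay above all ICR mice on CDAHFD, and the other two ICR ND mice lay below them. The log2 fold change was 0.73 ± 0.56 (adjusted p = 0.342) in ICR, 1.81 without ICR ND replicate 2 (adjusted p = 0.000736), and 1.78 ± 0.20 (adjusted p = 0.000156) in C57BL/6J.

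Herc6, in mouse the main ligase that attaches ISG15, stood at 21.9, 22.3 and 19.9 CPM in ICR mice on CDAHFD, against 20.8, 58.5 and 26.9 CPM in ICR mice on ND. Herc6 in C57BL/6J mice stood at 38.1, 43.9 and 65.8 CPM on CDAHFD, against 25.1, 32.6 and 20.2 CPM on ND. Its ICR value was negative (log2 -0.71 ± 0.35, adjusted p = 0.151), and in C57BL/6J it rose 1.9-fold (adjusted p = 0.0102). Without ICR ND replicate 1 Herc6 was called lower in ICR (-0.97, adjusted p = 0.0489). Near-identical sequence of another annotated gene, Gm45193, covered 26.7% of the Herc6 transcript. Gm45193 also overlaps 13.7% of the Herc6 exonic bases on the same strand, and the effect on the Herc6 counts was not tested. Isg15 itself, chosen after its values were seen, stood at 13.2, 12.4 and 10.9 CPM in ICR mice on CDAHFD, against 7.28, 19.4 and 7.06 CPM in ICR mice on ND. Its C57BL/6J levels were 73.1, 41.6 and 107 CPM on CDAHFD, against 16.9, 22 and 16.5 CPM on ND. Isg15 rose 4.01-fold in C57BL/6J (adjusted p = 0.000738) and was called in ICR without ND replicate 2 (log2 0.76, adjusted p = 0.016) but not with all libraries (0.14, adjusted p = 0.807).

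Rsad2 and Cmpk2 are neighboring genes that make an antiviral nucleotide, viperin from CTP and Cmpk2 by supplying CTP. Neither was called in ICR livers and both rose in C57BL/6J livers. Rsad2 stood at 17, 28.6 and 19.6 CPM in ICR mice on CDAHFD, against 8.65, 26.8 and 12.2 CPM in ICR mice on ND. Rsad2 in C57BL/6J mice stood at 56.3, 96.1 and 210 CPM on CDAHFD, against 27.5, 28.9 and 29.2 CPM on ND. The C57BL/6J values spread over a wide range on CDAHFD and a narrow one on ND. Rsad2 rose 4.24-fold in C57BL/6J (log2 2.09 ± 0.40, adjusted p = 0.00249), and its ICR value was 0.47 ± 0.40 (adjusted p = 0.395).

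Cmpk2 stood at 18.9, 18.8 and 13.5 CPM in ICR mice on CDAHFD, against 10.2, 21.6 and 9.98 CPM in ICR mice on ND. Cmpk2 in C57BL/6J mice stood at 34.1, 43 and 85.2 CPM on CDAHFD, against 12.7, 17.2 and 17.6 CPM on ND. As for Rsad2, the highest ICR ND value was in replicate 2. Cmpk2 rose 3.42-fold in C57BL/6J (adjusted p = 0.00176). Both genes were called in ICR without ND replicate 2, Rsad2 at 1.06 (adjusted p = 0.022) and Cmpk2 at 0.75 (adjusted p = 0.0266).

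**Figure D2:**
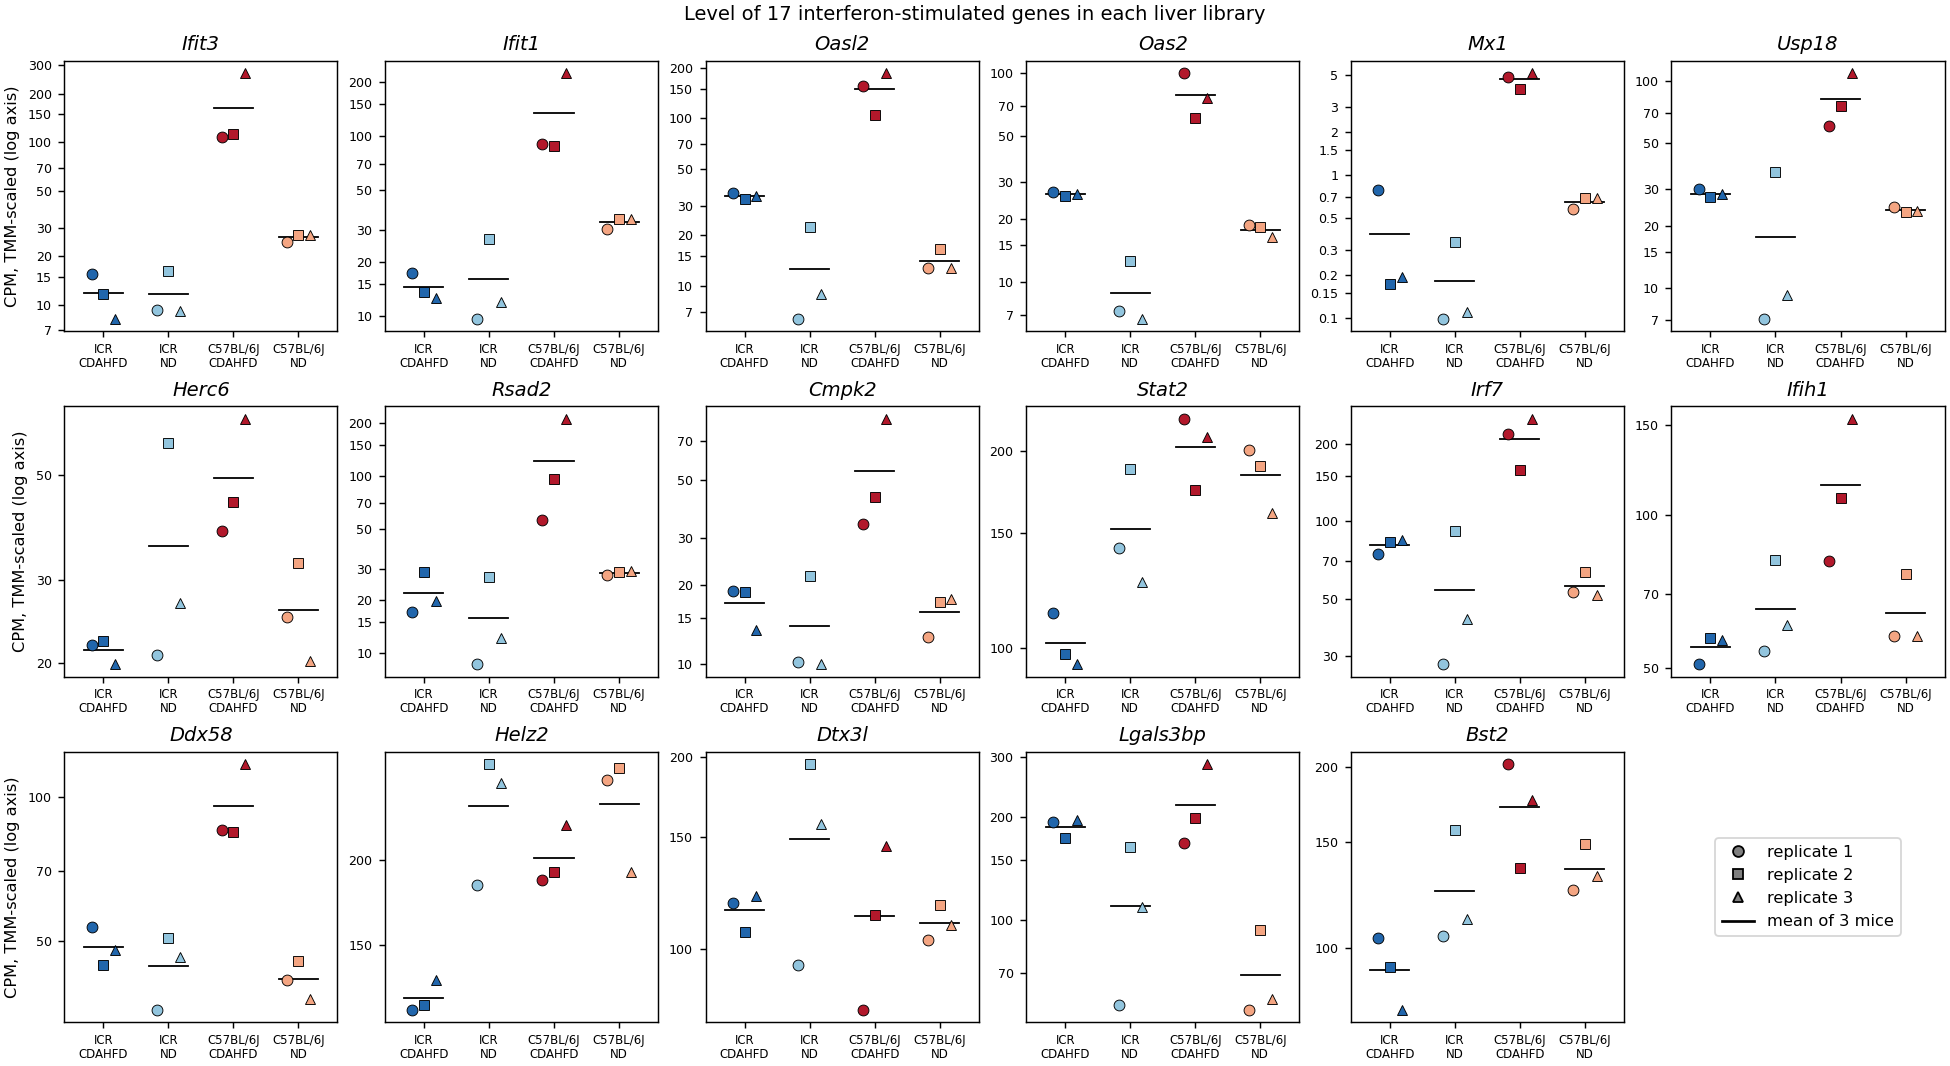
Level of 17 interferon-stimulated genes in each of the 12 libraries, in TMM-scaled CPM on a log axis, with groups in the order ICR CDAHFD, ICR ND, C57BL/6J CDAHFD and C57BL/6J ND and a line at each group mean. ICR ND replicate 2 is the highest ICR ND point in each panel.

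Among the transcription factors, 0 of 3 rose and Stat2 fell in ICR livers, and Irf7 alone was called in C57BL/6J livers. Irf7, which amplifies interferon production, stood at 74.2, 83.2 and 84.8 CPM in ICR mice on CDAHFD, against 27.7, 91.8 and 41.7 CPM in ICR mice on ND. Irf7 in C57BL/6J mice stood at 219, 158 and 250 CPM on CDAHFD, against 52.8, 63.6 and 51.6 CPM on ND. The ICR groups overlapped through ND replicate 2 alone. Irf7 rose 3.74-fold in C57BL/6J (log2 1.90 ± 0.19, adjusted p = 7.38e-05), and its ICR value was 0.61 ± 0.38 (adjusted p = 0.253) and, without ICR ND replicate 2, 1.22 (adjusted p = 0.00343).

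Stat2, a subunit of ISGF3, stood at 113, 97.7 and 94.3 CPM in ICR mice on CDAHFD, against 142, 188 and 126 CPM in ICR mice on ND. Stat2 in C57BL/6J mice stood at 224, 174 and 210 CPM on CDAHFD, against 201, 190 and 161 CPM on ND. All ICR mice on CDAHFD lay below all ICR mice on ND, whereas the C57BL/6J groups overlapped. The log2 fold change was -0.57 ± 0.17 (adjusted p = 0.0358) in ICR and 0.14 ± 0.16 (adjusted p = 0.482) in C57BL/6J. The ICR call was lost without ICR CDAHFD replicate 2 (-0.53, adjusted p = 0.12) or replicate 3 (-0.51, adjusted p = 0.124), without ICR ND replicate 1 (-0.60, adjusted p = 0.0513) or replicate 2 (-0.40, adjusted p = 0.0629), and with scaling by library size alone the value turned to 0.05 (adjusted p = 0.839). Irf9, the DNA-binding subunit of ISGF3, was called in neither strain, with -0.46 (adjusted p = 0.189) in ICR and 0.24 (adjusted p = 0.117) in C57BL/6J. Without ICR ND replicate 1 Irf9 was called lower in ICR (-0.7, adjusted p = 0.0205).

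None of the 5 nucleic acid sensors was called in ICR livers, and all 5 rose in C57BL/6J livers, by 1.79-fold to 4.32-fold. Ifih1, which encodes the sensor of long double-stranded RNA MDA5, stood at 50.9, 57.3 and 56.8 CPM in ICR mice on CDAHFD, against 54.1, 81.4 and 60.9 CPM in ICR mice on ND. Ifih1 in C57BL/6J mice stood at 81.2, 108 and 154 CPM on CDAHFD, against 57.9, 76.5 and 57.8 CPM on ND. Its ICR value was -0.24 ± 0.15 (adjusted p = 0.254), and in C57BL/6J it rose 1.79-fold (log2 0.84 ± 0.23, adjusted p = 0.0137). That call was lost without C57BL/6J ND replicate 1 (adjusted p = 0.0557) or replicate 3 (adjusted p = 0.0602).

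Ddx58, which encodes RIG-I, a sensor of RNA ends, stood at 53.4, 44.5 and 47.8 CPM in ICR mice on CDAHFD, against 35.9, 50.8 and 46.3 CPM in ICR mice on ND. Ddx58 in C57BL/6J mice stood at 85.4, 84.6 and 117 CPM on CDAHFD, against 41.5, 45.4 and 37.8 CPM on ND. All ICR mice and the C57BL/6J mice on ND fell within the same range, and the C57BL/6J mice on CDAHFD lay above it. Ddx58 rose 2.31-fold in C57BL/6J (adjusted p = 0.000336), and its ICR value was 0.14 ± 0.15 (adjusted p = 0.495).

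Dhx58, which encodes LGP2, a regulator of RIG-I and MDA5, stood at 14.7, 11.8 and 13.7 CPM in ICR mice on CDAHFD, against 10.7, 23.1 and 11.1 CPM in ICR mice on ND. Dhx58 in C57BL/6J mice stood at 38.1, 37 and 60.9 CPM on CDAHFD, against 15.2, 19.8 and 15.8 CPM on ND. Dhx58 rose 2.68-fold in C57BL/6J (adjusted p = 0.000709), and its ICR value was -0.14 ± 0.30 (adjusted p = 0.737), or 0.29 (adjusted p = 0.201) without ND replicate 2. Eif2ak2 and Zbp1 are given next because of their values. Eif2ak2, which encodes PKR, a kinase that halts translation when bound to double-stranded RNA, stood at 37.6, 36.2 and 35.8 CPM in ICR mice on CDAHFD, against 34.7, 51.5 and 47.6 CPM in ICR mice on ND. Eif2ak2 in C57BL/6J mice stood at 81.1, 72.3 and 100 CPM on CDAHFD, against 45.7, 45.8 and 40.6 CPM on ND. For Eif2ak2 the log2 fold change came to -0.28 ± 0.15 (adjusted p = 0.193) in ICR and 0.94 ± 0.15 (adjusted p = 0.00082) in C57BL/6J. Without ICR ND replicate 1 Eif2ak2 was called lower in ICR (-0.41, adjusted p = 0.022).

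Zbp1, a sensor of Z-form nucleic acids that can trigger cell death, stood at 33.6, 41.9 and 36.9 CPM in ICR mice on CDAHFD, against 9.05, 99.6 and 20.4 CPM in ICR mice on ND. Zbp1 in C57BL/6J mice stood at 112, 87.1 and 162 CPM on CDAHFD, against 21.7, 44.6 and 17.5 CPM on ND. ICR ND replicate 2 was 6.76-fold above the mean of the other two ICR ND mice, the highest such ratio of the members. The ICR value of -0.17 ± 0.74 (adjusted p = 0.877) turned to 1.35 (adjusted p = 0.0175) without that library. In C57BL/6J Zbp1 rose 4.32-fold (adjusted p = 0.00121).

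Parp9 and Dtx3l form a complex that attaches ubiquitin, Parp14 adds ADP-ribose to proteins, and Helz2 is a helicase and a coactivator of nuclear receptors. Of these 4 genes 0 rose and Helz2 fell in ICR livers, and Parp14 alone rose in C57BL/6J livers. Helz2 stood at 120, 122 and 133 CPM in ICR mice on CDAHFD, against 184, 278 and 261 CPM in ICR mice on ND. Helz2 in C57BL/6J mice stood at 187, 192 and 226 CPM on CDAHFD, against 263, 274 and 192 CPM on ND. It was the member with the lowest log2 fold change in both strains, -0.94 ± 0.16 (adjusted p = 0.00538) in ICR and -0.26 ± 0.17 (adjusted p = 0.249) in C57BL/6J. With scaling by library size only its ICR value was -0.33 (adjusted p = 0.0906), and the call was lost.

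Dtx3l stood at 118, 106 and 121 CPM in ICR mice on CDAHFD, against 94.1, 195 and 157 CPM in ICR mice on ND. Dtx3l in C57BL/6J mice stood at 80.1, 113 and 145 CPM on CDAHFD, against 103, 117 and 109 CPM on ND. The groups overlapped in both strains, with log2 fold changes of -0.36 ± 0.24 (adjusted p = 0.28) in ICR and 0.04 ± 0.20 (adjusted p = 0.879) in C57BL/6J. Without ICR ND replicate 1 Dtx3l was called lower in ICR (-0.59, adjusted p = 0.0181). Dtx3l and Parp9 overlap on opposite strands over 8% and 9.4% of their exonic bases, and whether reads were counted by strand was not given in the sources used here. Parp9 had values of -0.60 (adjusted p = 0.0511) in ICR and 0.37 (adjusted p = 0.207) in C57BL/6J. In ICR it was called lower by DESeq2 (-0.59, adjusted p = 0.0296) and without ND replicate 1 (-0.78, adjusted p = 0.00901). In C57BL/6J it was called higher without CDAHFD replicate 1 (0.55, adjusted p = 0.049). Parp14 stood at 89, 87.7 and 85.1 CPM in ICR mice on CDAHFD, against 47, 143 and 66.9 CPM in ICR mice on ND. Its C57BL/6J levels were 127, 134 and 201 CPM on CDAHFD, against 55.2, 66.7 and 54.6 CPM on ND. Parp14 rose 2.62-fold in C57BL/6J (adjusted p = 0.00046), and its ICR value of 0.04 (adjusted p = 0.935) was called at 0.62 (adjusted p = 0.023) without ND replicate 2.

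The other 10 members are a mixed group, of which 3 rose in ICR livers and 9 in C57BL/6J livers on CDAHFD. Lgals3bp, a secreted glycoprotein that binds galectins, stood at 193, 174 and 196 CPM in ICR mice on CDAHFD, against 56.1, 163 and 109 CPM in ICR mice on ND. Lgals3bp in C57BL/6J mice stood at 168, 199 and 286 CPM on CDAHFD, against 54.4, 93.1 and 58.4 CPM on ND. The diet groups did not overlap in either strain, and the ranges of the strains overlapped on each diet. Lgals3bp rose 3.18-fold in C57BL/6J (adjusted p = 0.000799), and its ICR value was 0.80 ± 0.33 (adjusted p = 0.099) with all libraries and 1.19 (adjusted p = 0.0143) without ND replicate 2.

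Bst2, which encodes tetherin, a protein that holds budding virus on the cell surface, stood at 104, 93.2 and 79.1 CPM in ICR mice on CDAHFD, against 105, 157 and 112 CPM in ICR mice on ND. Bst2 in C57BL/6J mice stood at 202, 136 and 176 CPM on CDAHFD, against 125, 149 and 132 CPM on ND. All ICR mice on CDAHFD lay below all ICR mice on ND, but the difference was not called (log2 -0.42 ± 0.18, adjusted p = 0.107), nor was that of C57BL/6J (0.35 ± 0.17, adjusted p = 0.123). Without C57BL/6J CDAHFD replicate 2, Bst2 was called higher in C57BL/6J (0.48, adjusted p = 0.0433). Ifi35, a leucine zipper protein, stood at 21.2, 19.4 and 19.2 CPM in ICR mice on CDAHFD, against 23.8, 24.6 and 17.2 CPM in ICR mice on ND. Its C57BL/6J levels were 38.5, 29.9 and 37.6 CPM on CDAHFD, against 26.5, 27 and 25.9 CPM on ND. The C57BL/6J rise of 1.34-fold (adjusted p = 0.0306) was lost without CDAHFD replicate 1 or 3 or any ND library (adjusted p of 0.0608 to 0.114), and an antisense gene overlaps 16.8% of the Ifi35 exonic bases.

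Xaf1, a protein that promotes apoptosis, stood at 49, 30.7 and 32.3 CPM in ICR mice on CDAHFD, against 17.2, 79.3 and 39.4 CPM in ICR mice on ND. Xaf1 in C57BL/6J mice stood at 78.4, 53.6 and 85.5 CPM on CDAHFD, against 18.6, 21.9 and 18.4 CPM on ND. Rtp4, a receptor transporter, stood at 29.6, 23.4 and 29.2 CPM in ICR mice on CDAHFD, against 14.3, 62.4 and 21.7 CPM in ICR mice on ND. For both genes the ICR groups overlapped and ND replicate 2 was the highest ICR library. Rtp4 in C57BL/6J mice stood at 101, 90.4 and 124 CPM on CDAHFD, against 38.5, 34.7 and 34.6 CPM on ND. Xaf1 rose 3.7-fold (adjusted p = 7.16e-05) and Rtp4 2.93-fold (adjusted p = 5.15e-05) in C57BL/6J, and their ICR values were -0.25 (adjusted p = 0.717) and -0.24 (adjusted p = 0.734). Without ICR ND replicate 2 these were 0.41 (adjusted p = 0.413) and 0.61 (adjusted p = 0.0591), in the other direction and not called. Near-identical sequence of Gm45338, which overlaps 13.9% of the Rtp4 exonic bases on the same strand, covered 15.9% of the Rtp4 transcript.

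Samd9l, Sp100 and Ifi27l2a are the members of this group that rose in both strains, and they are given in full for that reason. Samd9l, which restricts poxviruses and lowers protein synthesis, stood at 84.1, 74.5 and 69.5 CPM in ICR mice on CDAHFD, against 16.9, 29.1 and 14.3 CPM in ICR mice on ND. Samd9l in C57BL/6J mice stood at 201, 128 and 180 CPM on CDAHFD, against 41.7, 33.7 and 31.3 CPM on ND. The diet groups lay well apart in both strains. Samd9l rose 3.82-fold in ICR (log2 1.93 ± 0.26, adjusted p = 0.00204) and 4.79-fold in C57BL/6J (log2 2.26 ± 0.20, adjusted p = 3.52e-05).

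Sp100, a component of nuclear bodies, stood at 44.8, 51 and 53.1 CPM in ICR mice on CDAHFD, against 15.8, 26.9 and 14.8 CPM in ICR mice on ND. Sp100 in C57BL/6J mice stood at 107, 86.6 and 112 CPM on CDAHFD, against 30.7, 20 and 31.7 CPM on ND. It rose 2.61-fold in ICR (adjusted p = 0.00424) and 3.72-fold in C57BL/6J (adjusted p = 8.39e-05), with 14% of its transcript covered by near-identical sequence of other genes. Ifi27l2a, a small mitochondrial protein gene, stood at 3.58, 2.22 and 2.65 CPM in ICR mice on CDAHFD, against 0.492, 1.07 and 1.05 CPM in ICR mice on ND. Its C57BL/6J levels were 22.8, 5.31 and 8 CPM on CDAHFD, against 0.995, 0.978 and 0.688 CPM on ND. Ifi27l2a was the least abundant of these genes and rose 3.28-fold in ICR (adjusted p = 0.0144) and 13.5-fold in C57BL/6J (adjusted p = 0.000738). Ifi44 and Trim30a rose 8.9-fold (adjusted p = 3.03e-05) and 4.56-fold (adjusted p = 2.5e-05) in C57BL/6J. In ICR neither was called with all 6 libraries, and without ND replicate 2 both were, at log2 2.28 for Ifi44 (adjusted p = 0.00192) and 1.89 for Trim30a (adjusted p = 0.00144). Trim30a was also called in ICR with all libraries by DESeq2 (1.15, adjusted p = 0.0321), in 1 fit of all 12 libraries (1.13, adjusted p = 0.0301) and with scaling by library size only (1.77, adjusted p = 0.0136).

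The strain by diet term, the log2 fold change on CDAHFD in ICR minus that in C57BL/6J, tests whether the response differed between the strains. It was negative for all 36 members, from -2.70 (Oas3) to -0.34 (Samd9l), with a median of -1.34 against -0.01 over all genes. None of the 36 passed edgeR's quasi-likelihood test at an adjusted p under 0.05, where 0.0575% of all genes were called lower and 0.122% higher. The smallest adjusted p were those of Eif2ak2 (-1.23 ± 0.22, adjusted p = 0.0546) and Ifit3 (-2.62 ± 0.50, adjusted p = 0.0702). At an unadjusted p under 0.05, 26 of 36 were lower and 0 higher, where 4.92% of all genes were lower and 4.57% higher. At the thresholds of the study's methods, p under 0.05 with at least a 2-fold difference, 20 passed, where 5.25% of all genes did. The DESeq2 Wald test called 10 lower and 0 higher, where 0.849% of all genes were called lower and 0.885% higher. These 10 were Ifit1, Ifit2, Ifit3, Oas3, Oasl2, Isg15, Ddx58, Dhx58, Eif2ak2 and Xaf1. The median was -0.82 with 0 called without ICR ND replicate 2. The term was then no longer negative for Usp18 (0.04, adjusted p = 0.989) and Samd9l (0.03, adjusted p = 0.991). With ICR ND replicate 1 left out instead, 9 were called lower, where 0.557% of all genes were. The members share libraries, so their common direction is not a count of independent results. The term was also negative for 18 of 18 interferon-gamma-induced GTPases, with a median of -2.04, and for 10 of 10 cell cycle genes, with a median of -1.51. By edgeR 0 of either list were called, and 15 of the GTPases and 7 of the cell cycle genes had an unadjusted p under 0.05. On ND, the median log2 difference of ICR minus C57BL/6J was 1.02 for the GTPases and 1.40 for the cell cycle genes. That of the members was -0.13, so both lists stood higher in ICR on ND and the members did not. On CDAHFD the medians were -0.84 for the GTPases, 0.07 for the cell cycle genes and -1.32 for the members. The part of either list in the members' values was not tested.

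On CDAHFD, the members stood lower in ICR than in C57BL/6J livers. By edgeR's quasi-likelihood test 29 of 36 were lower and 0 higher, where 7.5% of all genes were lower and 8.13% higher, and the median log2 difference was -1.32 against -0.01 over all genes. At an unadjusted p under 0.05, 33 were lower and 0 higher, where 15.9% and 16.3% of all genes were. The DESeq2 Wald test called 29 lower and 0 higher, where 11.7% and 11.1% of all genes were. For 34 of 36 members every ICR library lay below every C57BL/6J library, where 22.2% of all genes did so, and for 0 every one lay above, where 22.3% did. The exceptions were Dtx3l and Lgals3bp, whose groups overlapped. The members not called were Oas1a, Zbp1, Parp9, Dtx3l, Parp14, Xaf1 and Lgals3bp. With 1 CDAHFD library left out, 17 to 27 were called lower. The count was 17 without ICR CDAHFD replicate 3, 19 without ICR CDAHFD replicate 2 and 20 without C57BL/6J CDAHFD replicate 3, where 2.64%, 2.64% and 4.91% of all genes were lower. Without each other CDAHFD library 4.11% to 5.62% of all genes were lower. Of the 29, 17 were called whichever CDAHFD library was left out. ND libraries, which are also in this fit, were not left out for this comparison.

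The differences on CDAHFD were widest for Ifit3 (log2 -3.78 ± 0.38, adjusted p = 9.28e-05), Mx1 (-3.57 ± 0.53, adjusted p = 0.00173) and Ifit1 (-3.20 ± 0.42, adjusted p = 0.000736), with ICR levels of 0.0727, 0.0843 and 0.109 times those of C57BL/6J. Isg15 followed at -2.60 ± 0.40 (adjusted p = 0.00201) and Rsad2 at -2.47 ± 0.47 (adjusted p = 0.00704). Calls also held for Oas2 (-1.57, adjusted p = 0.00137), Eif2ak2 (-1.21, adjusted p = 0.000713), Dhx58 (-1.76, adjusted p = 0.00302) and Stat2 (-0.99, adjusted p = 0.00358). Usp18 (-1.51, adjusted p = 0.045) and Oas3 (-1.91, adjusted p = 0.0332) were called with all libraries and lost whichever CDAHFD library was left out, with adjusted p up to 0.134 and 0.107. For 12 members all ICR mice on CDAHFD also lay below all C57BL/6J mice on ND, but 30.7% of all genes did so too.

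On ND few members were called between the strains. By the same test 3 of 36 were lower in ICR livers, where 10.1% of all genes were, and 0 were higher, where 11.3% were. The median log2 difference was -0.13 against -0.01 over all genes, and at an unadjusted p under 0.05, 6 were lower and 1 higher, where 17.3% and 19% of all genes were. The DESeq2 Wald test called 5 lower, where 13.9% of all genes were, and 1 higher, Xaf1 (1.18, adjusted p = 0.0217), where 13.6% were. The 3 genes were Ifit3 (-1.17 ± 0.36, adjusted p = 0.038), Oas2 (-1.01 ± 0.23, adjusted p = 0.0127) and Samd9l (-0.82 ± 0.25, adjusted p = 0.0351). Every ICR library lay below every C57BL/6J library for 7 members, where 18.2% of all genes did so, and above for 0, where 17.2% did.

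The count on ND turned on single libraries. Leaving out ICR ND replicate 2, the highest of its group for every member, lowers the ICR level by construction. Without ICR ND replicate 2, 11 members were lower in ICR livers and 0 higher, where 6.1% and 6.21% of all genes were, and the median was -0.65. The genes that passed then were Ifit1 (-1.62, adjusted p = 0.0197), Oasl2 (-0.88, adjusted p = 0.0406), Isg15 (-1.36, adjusted p = 0.0227), Usp18 (-1.55, adjusted p = 0.00207), Rtp4 (-1.0, adjusted p = 0.011), Ifi44 (-1.35, adjusted p = 0.0255), Trim30a (-0.97, adjusted p = 0.0207) and Sp100 (-0.84, adjusted p = 0.0222), beside the 3 above. Without ICR ND replicate 1, 4 were higher and 1 lower, where 16.1% and 13.8% of all genes were. The 4 were Dtx3l (0.68, adjusted p = 0.0276), Parp14 (0.84, adjusted p = 0.0408), Xaf1 (1.59, adjusted p = 0.00314) and Lgals3bp (0.98, adjusted p = 0.0192). Without ICR ND replicate 3 none was called, where 4.98% of all genes were higher and 4.16% lower. With each C57BL/6J ND library left out in turn 1 member was lower, where 4.49% to 9.8% of all genes were. Reads of both strains were aligned to the C57BL/6J reference, and the effect of this on the strain differences was not tested.

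**Figure D3:**
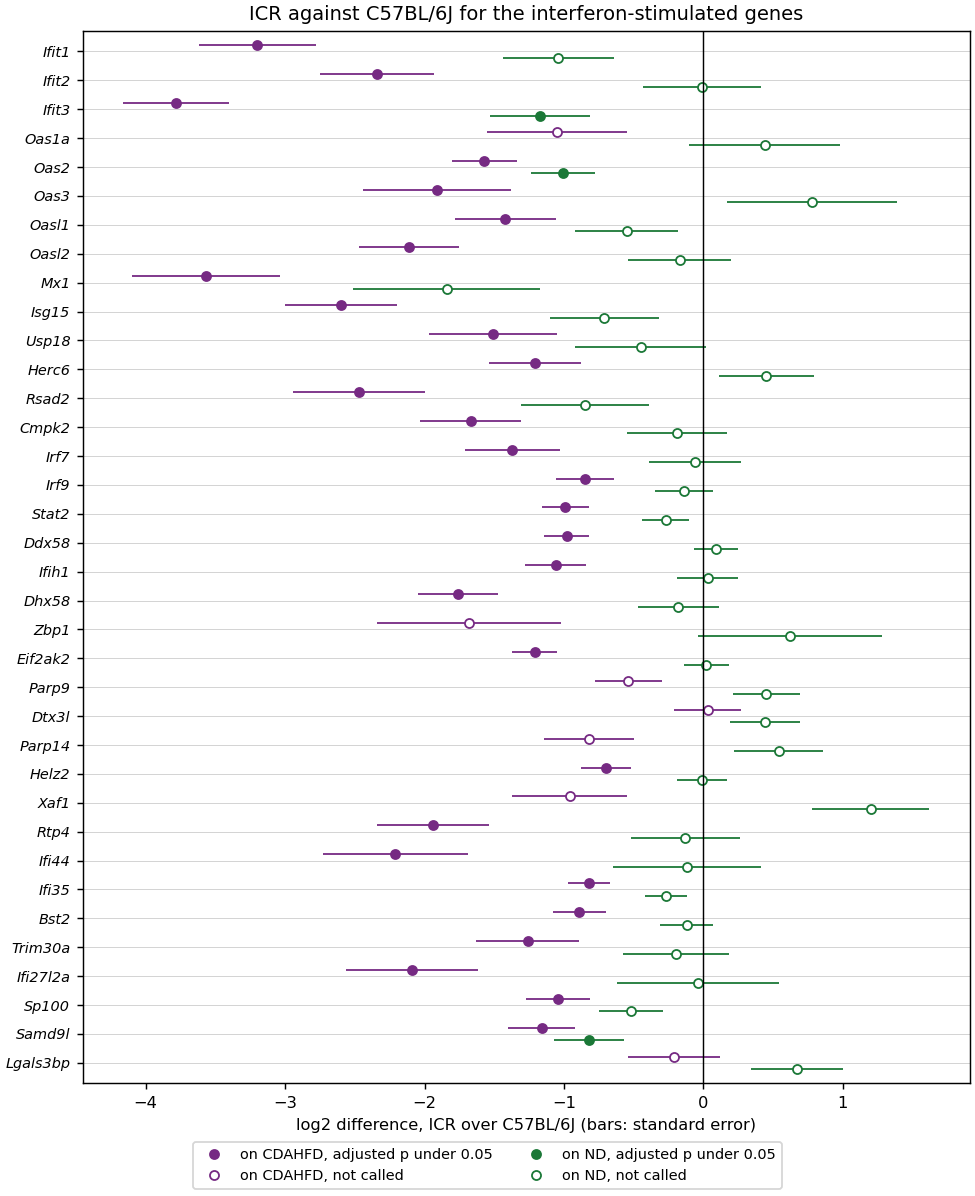
Log2 difference of ICR minus C57BL/6J for each interferon-stimulated gene on CDAHFD (purple, above) and on ND (green, below), with bars of 1 SE from the edgeR fit of 12 libraries. On CDAHFD 35 of 36 points lie below 0, with Ifit3 lowest at -3.78, and on ND the points run from -1.84 (Mx1) to 1.20 (Xaf1).

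C57BL/6J CDAHFD replicate 3 was the highest of all 12 libraries for 26 of 36 members, where 5.31% of all genes were highest there, and ICR ND replicate 1 was the lowest of all 12 for 20, where 9.87% were. ICR ND replicate 2 lay above every ICR mouse on CDAHFD for 21 members, but 41% of all genes did so. The mean log2 level of the 36 members, relative to the mean of the 12 libraries, was -0.09, -0.23 and -0.24 in ICR mice on CDAHFD, against -1.25, 0.10 and -0.86 in ICR mice on ND. In C57BL/6J mice it was 1.15, 1.01 and 1.65 on CDAHFD, against -0.47, -0.26 and -0.50 on ND. The 3 ICR mice on CDAHFD thus lay within a narrow range, and the ICR mice on ND spread over a wide one.

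**Figure D4:**
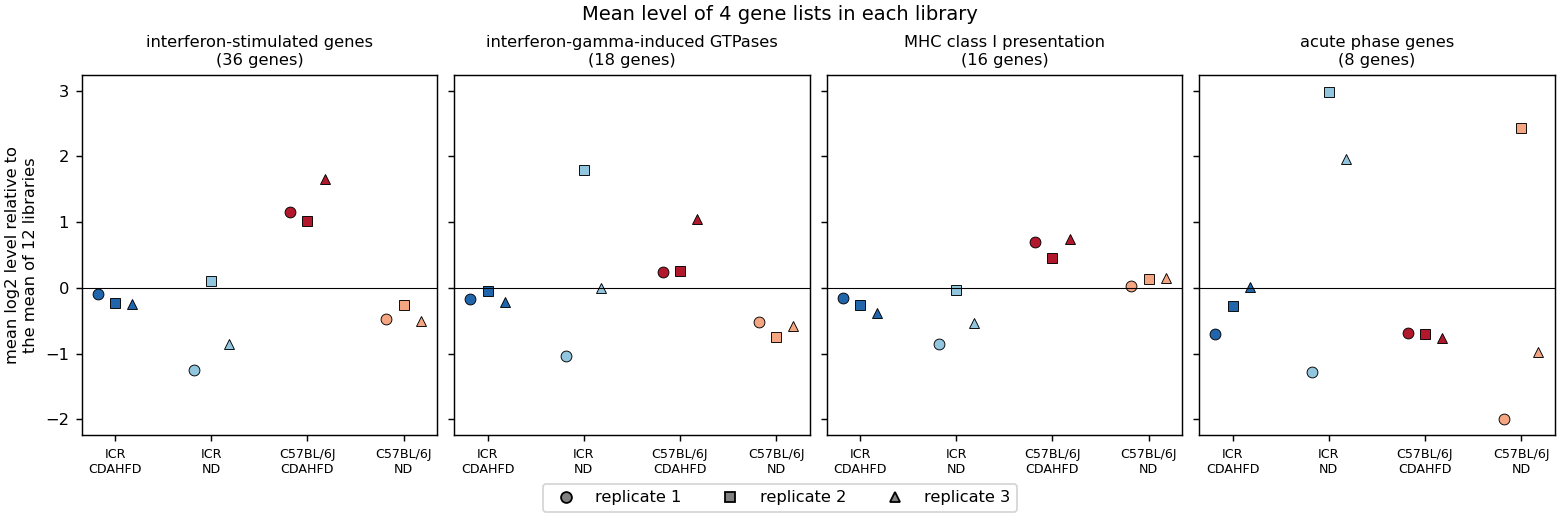
Mean log2 level of 4 gene lists in each library, relative to the mean of the 12 libraries, with groups in the order ICR CDAHFD, ICR ND, C57BL/6J CDAHFD and C57BL/6J ND. ICR ND replicate 2 is at 0.10 for the 36 interferon-stimulated genes, 1.79 for the 18 interferon-gamma-induced GTPases, -0.04 for 16 MHC class I genes and 2.98 for 8 acute phase genes.

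The other genes of the pathway were read from lists of ligands, receptors and kinases, sensors and adaptors, and feedback inhibitors, of which 36 of 52 were found by name and 31 were tested. In ICR livers 10 of the 31 rose and 2 fell on CDAHFD, with a median log2 fold change of 0.26, and in C57BL/6J livers 18 rose and 1 fell, with a median of 0.92. Of all genes, 20.1% rose and 16.5% fell in ICR, and 26% rose and 21.2% fell in C57BL/6J. Of the 7 receptors and kinases, 2 rose and 1 fell in ICR and 3 rose in C57BL/6J. Of the 16 sensors and adaptors, 7 rose and 1 fell in ICR, and 10 rose and 1 fell in C57BL/6J. Of the 8 feedback inhibitors, 1 rose in ICR and 5 rose in C57BL/6J. The kinase gene Jak1 was called in neither strain, with log2 fold changes of 0.19 (adjusted p = 0.437) in ICR and 0.22 (adjusted p = 0.251) in C57BL/6J.

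Mavs, the mitochondrial adaptor of RIG-I and MDA5, stood at 52.3, 65.4 and 67.9 CPM in ICR mice on CDAHFD, against 87.7, 175 and 126 CPM in ICR mice on ND. Mavs in C57BL/6J mice stood at 29.9, 51 and 47.1 CPM on CDAHFD, against 69.5, 84.5 and 80 CPM on ND. It fell in both strains, by 1.05 on the log2 scale in ICR (adjusted p = 0.013) and by 0.87 in C57BL/6J (adjusted p = 0.00568). Trim25, a ligase that activates RIG-I, was called in neither strain, with -0.62 (adjusted p = 0.0917) in ICR and -0.06 (adjusted p = 0.785) in C57BL/6J. Samhd1, which depletes nucleotides, rose 3.15-fold in C57BL/6J (adjusted p = 3.59e-05), with 0.70 (adjusted p = 0.178) in ICR. Adar, an RNA-editing enzyme that hides cellular RNA from MDA5, rose 1.89-fold in C57BL/6J (adjusted p = 0.00124), with -0.13 (adjusted p = 0.729) in ICR.

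Transcripts of the ligands were barely detected. Ifnb1, Ifna7, Ifna13 and Ifnz had 0 counts in all but 1 library each, which allows up to 0.0791 to 0.173 CPM per library, the level of 3 counts. These limits cover counting error only. Ifnk, an interferon of epithelial cells, ranged between 0.0793 and 0.419 CPM over the 12 libraries with overlapping groups.

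Genes induced mainly by interferon-gamma and markers of immune cells were read as well, and their part in the levels of the interferon-stimulated genes was not tested. Of all genes, 20.1% rose and 16.5% fell on CDAHFD in ICR livers, and 26% rose and 21.2% fell in C57BL/6J livers. Of the 18 interferon-gamma-induced GTPases, 0 rose and 4 fell in ICR livers on CDAHFD, with a median log2 fold change of -0.98, and 13 rose and 1 fell in C57BL/6J livers, with 1.30. At an unadjusted p under 0.05, 6 of the GTPases differed in ICR, where 47.7% of all genes did. Of 16 MHC class I presentation genes, 3 rose and 1 fell in ICR and 10 rose in C57BL/6J. Their ICR counts were near or below the shares of all genes. All 8 markers of lipid-associated macrophages rose in both strains, with medians of 4.88 in ICR and 4.40 in C57BL/6J, and 0 of the 8 were at 0 counts in any library. Their mean log2 level was 1.69 to 2.72 in ICR mice on CDAHFD, against -2.53 to -2.24 in ICR mice on ND, and 2.18 to 2.66 in C57BL/6J mice on CDAHFD, against -2.34 to -2.05 on ND.

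Markers of natural killer cells rose for 3 of 7 genes in ICR and 7 of 7 in C57BL/6J, where 20.1% and 26% of all genes rose. Their summed level was 17 to 18.4 CPM in ICR mice on CDAHFD, against 5.06 to 17 CPM in ICR mice on ND. In C57BL/6J mice it was 23.9 to 28.7 CPM on CDAHFD, against 7.07 to 10.1 CPM on ND. Plasmacytoid dendritic cells are known as strong producers of type I interferon. Their 5 markers summed to 6.97 to 14.8 CPM in ICR mice on CDAHFD, against 0.993 to 1.23 CPM in ICR mice on ND, and to 6.47 to 11.7 CPM in C57BL/6J mice on CDAHFD, against 1.99 to 2.07 CPM on ND, with 1 or 2 markers at 0 in each ND library. Between ICR and C57BL/6J livers on CDAHFD, 0 of the 8 macrophage markers were called lower and 1 was higher, with 2 at an unadjusted p under 0.05 in either direction. Of all genes, 7.5% were called lower and 8.13% higher there, and 32.2% had an unadjusted p under 0.05. Of the 5 plasmacytoid markers 0 were called by edgeR, and 0 had an unadjusted p under 0.05. Of the 16 MHC class I presentation genes 10 were lower in ICR and 0 higher, with a median of -0.92, and of the 18 interferon-gamma-induced GTPases 4 were lower and 0 higher, with a median of -0.84 and 16 negative. Of the 5 conventional dendritic cell markers 1 was lower and 0 higher, with a median of -0.91, and of the 7 natural killer cell markers 1 was higher and 0 lower, with a median of -0.67. Each of these last lists had 4 genes at an unadjusted p under 0.05. On ND, 7 of the MHC class I genes were already lower in ICR and 1 higher, with a median of -0.24. Of the conventional dendritic cell markers 2 were lower there and 0 higher, with a median of -0.82. The GTPases had 5 higher and 1 lower on ND (median 1.02), and the natural killer cell markers had 0 called (median 0.60). Of all genes, 10.1% were lower and 11.3% higher on ND, and the median of the members was -0.13. The part of these genes' cells or signals in the strain difference of the members was not tested.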

How the data were processed

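The deposited values used here are unnormalized gene counts in 12 columns, which the authors made by trimming (fastp 0.23.4), alignment (HISAT2 2.2.1) and counting (featureCounts 2.0.6). The paper describes rRNA-depleted stranded libraries and mm10, whereas the labels name mRNA purification and mm39, with an annotation not given in the sources used here. Another 24 per-sample columns hold the authors' CPM and FPKM and were not used. Of 17713 lines, 3 repeats were dropped.

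Analysis used R 4.3.3, edgeR 4.0.16 and limma 3.58.1. Low genes were removed with filterByExpr (minimum count 10, minimum total 15), and counts were scaled by TMM and tested with the quasi-likelihood F test, with Benjamini-Hochberg adjustment over all genes tested and a threshold of 0.05. Diet was tested within each strain on 6 libraries. Differences between strains, and their difference by diet, came from 1 fit of 12 libraries. Standard errors were taken from the test statistic, and mean log2 levels used a pseudocount of 0.25 CPM. The scripts were tested on simulated data.

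The members and lists were chosen with earlier results of these data known. Every library's value is given for the 2 members of highest mean CPM in each of 9 role groups, for members whose direction differed from most of their group, and for others chosen after their values were seen (Isg15, Eif2ak2, Zbp1, Samd9l, Sp100 and Ifi27l2a). Pathway genes were named as the 2 highest in each list, except for an item that is not reported here.

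Alternatives were DESeq2-type size factors, library size only, no filter, a filter on a CPM of 1 or more in 3 or more libraries, DESeq2 (version 1.42.0, Wald test), the replicate number as a block, 1 fit of all libraries, leaving out each library, and the thresholds in the methods (p under 0.05 with at least a 2-fold difference). For the strains on a diet, only libraries of that diet were left out. Same-numbered libraries were checked for pairing by the correlation of their deviations from group means. On CDAHFD, the correlations between ICR and C57BL/6J were 0.42, 0.34 and 0.11. The highest correlations with other-numbered libraries were -0.24, 0.23 and 0.12, so the same number was not the closest for replicate 3. No label pairs mice of different strains, and the main test used no pairing. The replicate block left 29 members called for the strains on CDAHFD, as without it. In the other comparisons at least 1 was below 0.1. Near-identical sequence means at least 98% identity over at least 150 bases in GRCm38 transcripts.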

Additional observations from a re-analysis of the deposited data

How the results depend on the processing

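Single members stayed on the same side of the threshold, without a called change of direction, for 406 of 455 results across alternatives in ICR and 454 of 468 in C57BL/6J. They did so for 627 of 648 results of the term for strain and diet, 406 of 432 for the strains on ND and 389 of 432 for the strains on CDAHFD. Among these, uncalled values changed sign in 25 results in ICR, 3 in C57BL/6J, 2 of the term, 40 for the strains on ND and 5 for the strains on CDAHFD. The number of called members in ICR was 15 with library size only in place of 8, where 52.5% of all genes were called higher and 4.61% lower. It was 5 to 20 with 1 library left out. For the strain by diet term it was 20 at the thresholds of the methods, where 5.25% of all genes passed, and 0 to 9 with 1 library left out. In place of 0 it was 2 without a filter, where 0.0903% of all genes were called lower. With DESeq2 it was 10, where 0.849% were. For the strains on ND the number was 5 at the thresholds of the methods, where 11.7% of all genes passed. It was 6 with DESeq2 in place of 3, where 13.6% of all genes were called higher and 13.9% lower. With 1 ND library left out it was 0 to 11. For the strains on CDAHFD the number was 17 to 27 with 1 CDAHFD library left out, and in C57BL/6J 28 to 31 with 1 library left out. Stat2 in ICR turned to 0.05 with library size only, and Zbp1 in ICR, at -0.17 with all libraries, ranged between -0.65 and 1.35 with 1 library left out and turned positive without ICR ND replicate 2. The fits without 1 library have fewer samples, and the cause of the other changes was not tested.

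With the replicate number as a block, 7 members were called in ICR, 30 in C57BL/6J, 0 for the strain by diet term, 3 for the strains on ND and 29 for the strains on CDAHFD. Of all genes, 18.7% were then called higher and 14.3% lower in ICR, and 26.6% and 22% in C57BL/6J. The shares were 0.0647% and 0.0216% for the term, 13.4% and 11.9% on ND, and 11.1% and 10% on CDAHFD. The call lost was Stat2 in ICR (-0.56, adjusted p = 0.0511), and no other call changed. In the diet comparisons the same-numbered correlations were 0.18, -0.02 and 0.05 in ICR and 0.19, 0.15 and -0.03 in C57BL/6J. Mx1 had 2 to 30 counts in ICR libraries.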
